A study of Homo sapiens with 24 samples.

Results

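DAP, VANGL1, UHMK1, RDH11, SAPCD2, SLC4A8 and ABAT are 7 genes among the 58721 gene identifiers of the count files that stood out for a large change when A549 cells received siRNA against MYBL2. They were picked from the siMYBL2 and siControl libraries, so their values in that comparison describe the choice and were not tested. A549 is an established human lung adenocarcinoma line, and all 24 libraries were made from it by polyA capture and paired-end sequencing. In the single knockdown experiment 4 libraries came from cells given siRNA against MYBL2 (siMYBL2), 4 from cells given siRNA against FOXM1 (siFOXM1) and 4 from cells given scrambled siRNA (siControl), at 25 nM. In the double knockdown experiment 3 libraries came from cells given siRNAs against both factors (siBoth) and 3 from cells given scrambled siRNA (siControl_both). The labels do not say whether siBoth received that dose of each siRNA or in total. A separate experiment compared 3 libraries of cells treated with 20 µM of the compound FDI-6 for 24 h (FDI6) with 3 of their controls (control_FDI6), which the study calls untreated in part of its text and DMSO elsewhere. The siBoth and FDI6 experiments have their own controls, and the genes were not picked from their libraries, whereas siFOXM1 shares its siControl libraries with the choice. Earlier results of these data were known when the genes were chosen, so the siBoth values are not a blind repeat.

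MYBL2, also called B-MYB, is a transcription factor that works with the MuvB complex to switch on genes of the late cell cycle, and FOXM1 is a forkhead factor that acts on many of the same promoters. FDI-6 was described as a compound that keeps FOXM1 from binding DNA. An siRNA guide strand pairs along its length with the mRNA it was designed against. It can also pair with other mRNAs through a short stretch near its 5′ end, most often in their 3′ UTRs, as a microRNA does through its seed.

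The 7 genes belong to unrelated pathways. DAP encodes a small proline-rich protein that is a substrate of mTOR and restrains autophagy, VANGL1 a membrane protein of planar cell polarity, and UHMK1 a kinase that phosphorylates the cell cycle inhibitor p27 and the splicing factor SF1. RDH11 encodes a retinaldehyde reductase, SAPCD2 a protein that helps to orient the mitotic spindle, SLC4A8 a sodium-driven chloride and bicarbonate exchanger, and ABAT the mitochondrial enzyme that breaks down the transmitter GABA. On hg38, DAP lies at chr5:10679230-10761234 on the minus strand and VANGL1 at chr1:115641970-115698224 on the plus strand. UHMK1 lies at chr1:162497251-162529631 on the plus strand, RDH11 at chr14:67676800-67695793 on the minus strand and SAPCD2 at chr9:137062127-137070557 on the minus strand. SLC4A8 lies at chr12:51391317-51515763 and ABAT at chr16:8674596-8784575, both on the plus strand. Genes on the other strand cover 23.1% of the exon sequence of SAPCD2, 2.4% of that of DAP, 2.2% of that of SLC4A8 and 1.6% of that of ABAT, and a gene on its own strand covers 6.3% of that of RDH11. The strand setting of the counting is not given in the sources used here. It is thus not known whether read pairs from such stretches were counted or dropped as ambiguous.

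Of the 5 genes that were lower in siMYBL2, 4 shared a 7-base word in their 3′ UTRs, and SAPCD2 held a different word that no other member has. The sites are shown because both words were picked from the genes that were lower in siMYBL2. Each line gives 30 bases of the sense strand of the canonical transcript, 5′ to 3′, with the word in capitals.
DAP, chr5:10680901-10680930, minus strand: tctgtcctttgCCTTACAtttccatattta
VANGL1, chr1:115691670-115691699, plus strand: tgggagcctcgCCTTACAactaattcctgc
VANGL1, chr1:115693233-115693262, plus strand: aactggaagttCCTTACAatatctttctca
UHMK1, chr1:162524646-162524675, plus strand: aaaagaaaaatCCTTACAaataaactgcag
RDH11, chr14:67677241-67677270, minus strand: ttggggcatttCCTTACAttgtcttgacaa
SAPCD2, chr9:137063792-137063821, minus strand: cctttgctctcACGCCCAgcctgtccccag
The word CCTTACA stood once in the 3′ UTRs of DAP, UHMK1 and RDH11 and 2 times in that of VANGL1, and ACGCCCA stood once in that of SAPCD2. The 3′ UTRs of SLC4A8 (8325 bases) and ABAT (3140 bases), the genes that were higher in siMYBL2, held neither word. Since the words were picked from the genes that were lower, this absence describes the choice. CCTTACA stood in 8.63% and ACGCCCA in 4.63% of the 13154 genes tested in siBoth that have a 3′ UTR of at least 30 bases. The siRNA sequences were not used here, and whether the words match them was not tested.

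The libraries held 16487394 to 30140550 read pairs counted on genes, and levels are given as counts per 1000000 of these pairs (CPM). The levels, percents of control and overlaps of groups use no TMM scaling, unlike the log2 fold changes of the edgeR fits. The targeted mRNAs were low where they were meant to be. MYBL2 was at 4.77 to 9.002 CPM in the 4 siMYBL2 libraries and 6.24 to 10.2 CPM in the 3 siBoth libraries, against 132 to 182 CPM in their controls. FOXM1 was at 10.3 to 13.2 CPM in siFOXM1 and 10.2 to 15.5 CPM in siBoth, against 107 to 138 CPM in the controls. FOXM1 was also lower in siMYBL2, at 60.3 to 94.3 CPM or 63.2% of control, while MYBL2 was at 98.6% of control in siFOXM1. In FDI6 MYBL2 was at 71.8% and FOXM1 at 79.5% of control. Their log2 fold changes there were -0.51 and -0.37 (adjusted p = 0.00105 and 0.004 by edgeR). Keratins and other epithelial markers summed to 2628 to 8004 CPM. Of the 5 alveolar type 2 markers, SFTPC, SFTPB and NKX2-1 did not exceed 0.333 CPM in any library. NAPSA was at 0.546 to 3.08 CPM and ABCA3 at 52.9 to 133 CPM. Read pairs that were not aligned made up 9.09% to 10.9% of the siBoth libraries and 7.68% to 7.92% of the siControl_both libraries. The part of this difference in the siBoth results was not tested.

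Per kilobase of exon, DAP had the highest level of the 7 genes in each control group, with 36.8 ± 4.03 CPM per kb (SD, n = 4) in siControl, 37.4 ± 3.02 (n = 3) in siControl_both and 24.3 ± 0.261 (n = 3) in control_FDI6. UHMK1 and RDH11 followed in siControl at 22.2 ± 1.20 and 20.3 ± 1.63 CPM per kb, a gap within their spread. The length used joins the exons of all annotated transcripts, 9248 bases for UHMK1 and 5498 for RDH11. The order of the genes depends on this length, and no other was tried. SAPCD2 was at 12.5 ± 0.706 CPM per kb in siControl and 8.76 ± 2.23 in siControl_both, but ranked above RDH11 and UHMK1 in control_FDI6 at 18.8 ± 1.23. VANGL1 was at 4.84 to 6.79 CPM per kb in the 3 control groups. The genes that were higher in siMYBL2 were by far the weakest, with 0.213 to 0.399 CPM per kb for SLC4A8 and 0.0871 to 0.143 for ABAT. ABAT had only 17 to 42 read pairs per control library, so its values carry the largest counting error of the 7. Groups that did not overlap their controls were common over all tested genes. All libraries lay above every control for 29.4% of tested genes in FDI6, 25.2% in siBoth, 6.11% in siFOXM1 and 15.5% in siMYBL2. All lay below every control for 22.2%, 11.6%, 3.88% and 8.78%, in the same order.

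**Figure D1:**
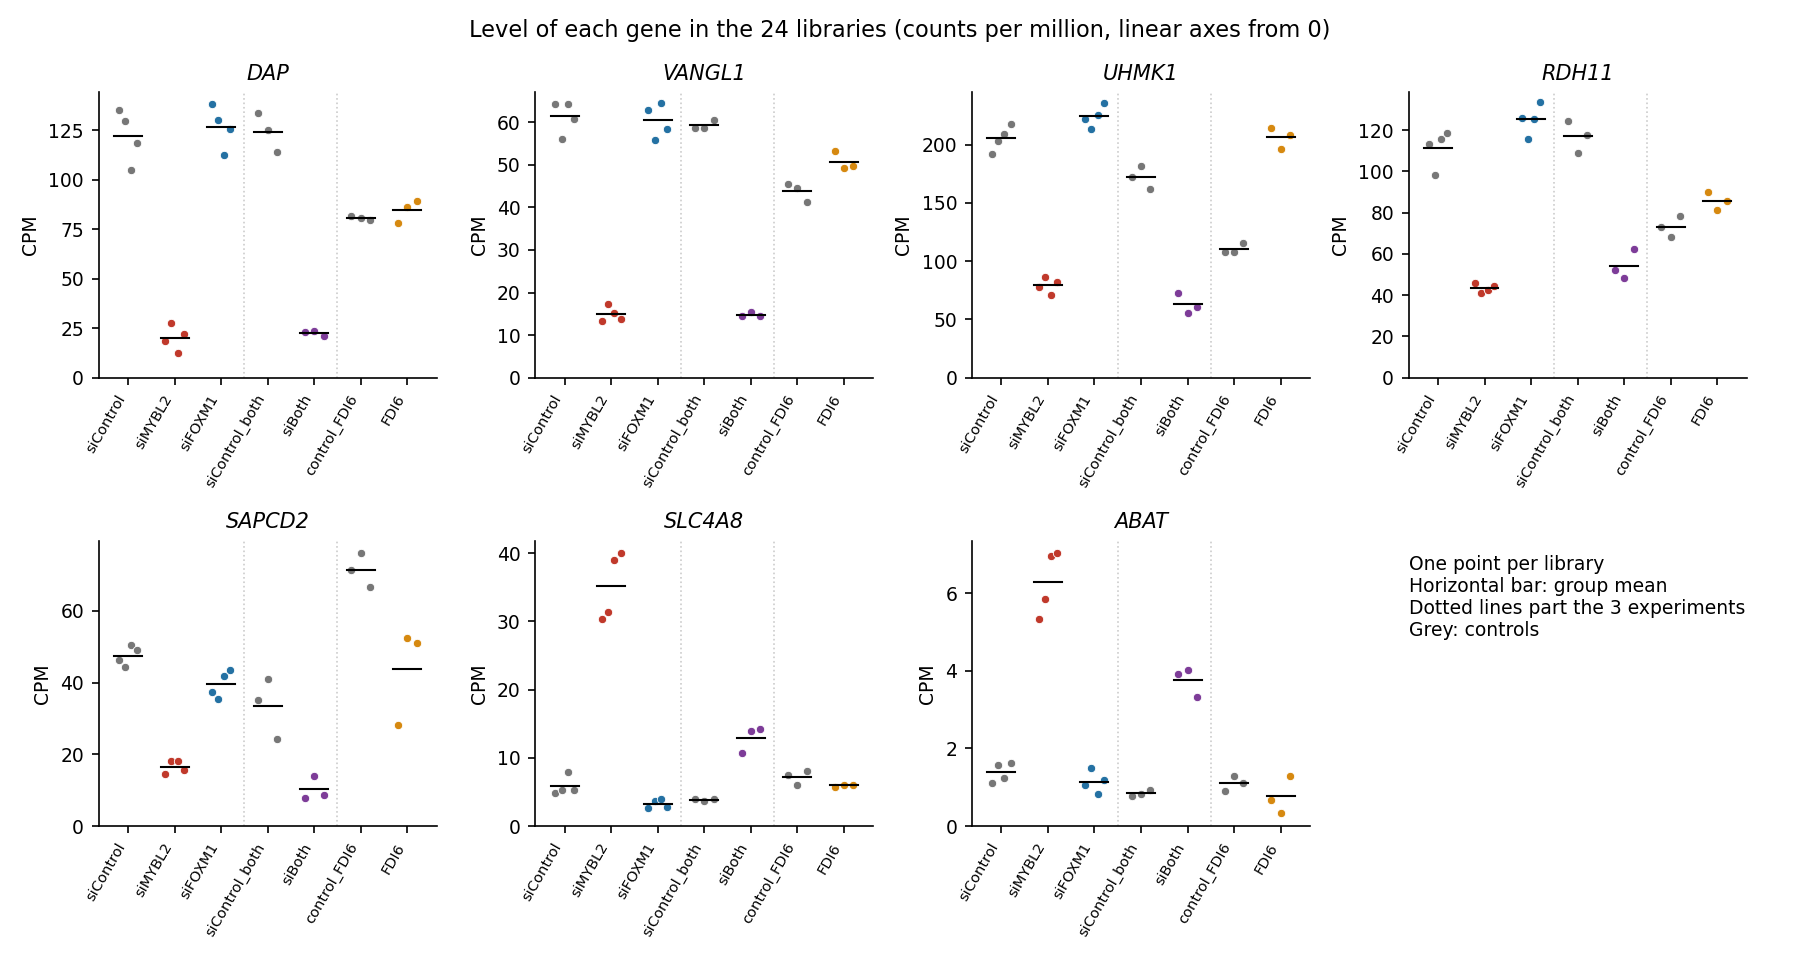
CPM of each gene (vertical axis, linear from 0) in every library of the 7 groups (horizontal axis), with 1 point per library, a bar at the group mean and dotted lines between the experiments. The siMYBL2 and siBoth points lie apart from their own controls in each panel, though for SLC4A8 and ABAT those of siBoth are lower than those of siMYBL2, and the siFOXM1 points of DAP, VANGL1, UHMK1 and RDH11 overlap those of siControl, with 3 of 4 above every control for UHMK1 and RDH11.

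DAP was at 18.6, 27.6, 12.3 and 21.9 CPM in the siMYBL2 libraries and at 136, 129.7, 105 and 119 CPM in siControl. In the double knockdown it was at 23.0, 23.4 and 21.1 CPM in siBoth and 134, 125 and 114 CPM in siControl_both. The siBoth level was 18.1% of that of the control, close to the 16.5% in siMYBL2, and the 3 siBoth libraries differed less among themselves than the 4 siMYBL2 libraries did. With FDI6 it was at 78.4, 86.3 and 89.1 CPM against 81.5, 80.6 and 79.8 CPM in control_FDI6, and these ranges overlapped. In siFOXM1 it was at 138, 130.0, 113 and 126 CPM, overlapping siControl with 1 library above it.

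VANGL1 had nearly the same relative level in both knockdowns. It was at 13.3, 17.3, 15.1 and 13.8 CPM in siMYBL2 and at 64.4, 56.0, 64.4 and 60.7 CPM in siControl. In siBoth it was at 14.4, 15.4 and 14.4 CPM, against 58.7, 58.8 and 60.5 CPM in siControl_both. The level left was 24.2% of control in siMYBL2 and 24.9% in siBoth. FDI6 libraries held 53.2, 49.2 and 49.7 CPM and control_FDI6 libraries 45.6, 44.5 and 41.4 CPM. Every treated library lay slightly above the controls, as in 29.4% of all tested genes. The siFOXM1 values of 63.0, 55.9, 64.6 and 58.4 CPM overlapped those of siControl.

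UHMK1 was lower in both groups given siRNA against MYBL2 and higher with the compound. Its level was 77.4, 86.0, 71.2 and 82.3 CPM in siMYBL2 against 192, 203, 209.6 and 218 CPM in siControl. The siBoth libraries held 72.8, 55.6 and 60.2 CPM and the siControl_both libraries 172, 181 and 162 CPM, so that 36.6% of the control level was left. FDI6 libraries held 215, 196 and 208 CPM against 108, 108 and 116 CPM in control_FDI6, which is 187% of the control level with no overlap. In siFOXM1 the values were 222, 213, 226 and 236 CPM, of which 3 lay above every siControl library.

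RDH11 had the smallest fall of the 5. It was at 46.1, 41.0, 42.4 and 44.6 CPM in siMYBL2 against 113, 98.4, 116 and 119 CPM in siControl. In siBoth it was at 52.3, 48.4 and 62.3 CPM against 124, 109 and 118 CPM in siControl_both. The level left was 39.1% of control in siMYBL2 and 46.4% in siBoth, and the highest siBoth library stayed well below the lowest control. With FDI6 the values were 90.2, 81.4 and 85.6 CPM against 72.9, 68.3 and 78.3 CPM in control_FDI6, just clear of each other. The siFOXM1 libraries held 126, 116, 125 and 134 CPM, of which 3 lay above every siControl library.

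SAPCD2 was lower in every treated group. It was at 14.4, 18.04, 18.2 and 15.7 CPM in siMYBL2 and at 46.3, 44.4, 50.4 and 49.1 CPM in siControl. In siBoth it was at 7.95, 14 and 8.74 CPM, against 35.04, 41.0 and 24.2 CPM in siControl_both. Replicate 2 was the highest library of both groups, and the groups did not overlap. SAPCD2 was also lower in every FDI6 library, at 28.2, 52.3 and 51.2 CPM against 71.6, 76.2 and 66.8 CPM in control_FDI6. The first FDI6 library lay far below the other 2, and the FDI6 group had a mean of 43.9 ± 13.6 CPM (SD, n = 3). The siFOXM1 values of 37.3, 35.4, 41.9 and 43.7 CPM all lay below those of siControl, by a narrow margin.

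SLC4A8 and ABAT were the genes that were higher in siMYBL2. SLC4A8 was at 30.3, 31.3, 39.0 and 40.0 CPM in siMYBL2 and at 4.88, 5.23, 7.96 and 5.34 CPM in siControl, 601% of the control level. In siBoth it was at 10.7, 13.96 and 14.2 CPM against 3.94, 3.62 and 3.92 CPM in siControl_both, 339% of control. The rise was thus smaller in siBoth than in siMYBL2 on both scales, a gap between separate experiments that was not tested. In siFOXM1 SLC4A8 was at 2.62, 3.74, 3.996 and 2.85 CPM, below each siControl library. FDI6 libraries held 5.70, 6.04 and 6.09 CPM and control_FDI6 libraries 7.47, 5.99 and 8.01 CPM, which overlapped.

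ABAT was at 5.33, 5.86, 6.97 and 7.03 CPM in siMYBL2 against 1.11, 1.57, 1.25 and 1.63 CPM in siControl, 454% of the control level. In siBoth it was at 3.92, 4.03 and 3.33 CPM against 0.770, 0.832 and 0.936 CPM in siControl_both, 444% of control. The absolute levels were thus lower in the double knockdown experiment, in treated and control cells alike, while the ratio was close to that of the single knockdown. With FDI6 it was at 0.667, 0.348 and 1.30 CPM against 0.894, 1.28 and 1.11 CPM, resting on 6 to 23 read pairs per treated library. The siFOXM1 values of 1.05, 1.49, 0.815 and 1.19 CPM overlapped siControl.

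The double knockdown asked whether the members move again in separate libraries that also received siRNA against MYBL2. All 7 were called in siBoth, in the direction that siMYBL2 had chosen them for: 5 of 5 were lower and 2 of 2 were higher. Calls come from the quasi-likelihood test of edgeR, adjusted by Benjamini-Hochberg over all genes tested, and need both an adjusted p below 0.05 and a change of more than 1.5-fold. Of the 15812 genes tested, 3.64% were called lower and 2.8% higher. DAP fell by 2.57 on the log2 scale (SE 0.101, adjusted p = 2.55e-05 by edgeR) and VANGL1 by 2.11 (SE 0.0802, adjusted p = 2.55e-05), which placed them at rank 4 and rank 10 from the lowest of all tested genes. SAPCD2 fell by 1.82 (SE 0.256, adjusted p = 0.0046 by edgeR), UHMK1 by 1.55 (SE 0.121, adjusted p = 0.000376) and RDH11 by 1.21 (SE 0.109, adjusted p = 0.000758). ABAT rose by 2.04 (SE 0.213, adjusted p = 0.00121 by edgeR) and SLC4A8 by 1.66 (SE 0.156, adjusted p = 0.000885). Each same-numbered pair of siBoth and siControl_both libraries showed the direction, in 3 of 3 pairs for each gene. Of all tested genes, 11.6% had every siBoth library below every control and 25.2% had every siBoth library above. The 5 alveolar type 2 markers summed to 101 to 123 CPM in siBoth and 84.9 to 91.3 CPM in siControl_both, nearly all of it ABCA3. The 7 markers of other cells summed to 36.2 to 62.1 CPM and 29.5 to 40.05 CPM, nearly all of it COL1A1. The part of these markers in the siBoth results was not tested.

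In the comparison that chose them, the log2 fold changes in siMYBL2 were -2.67 for DAP, -2.11 for VANGL1, -1.59 for SAPCD2, -1.44 for UHMK1, -1.42 for RDH11, 2.51 for SLC4A8 and 2.11 for ABAT. Of the 16065 genes tested there, 3.52% were called lower and 4.38% higher, and no more is read from these values. Side by side with siBoth, SLC4A8 had the widest gap of the 7 genes, 2.51 in siMYBL2 against 1.66 in siBoth, and VANGL1 had the same value to 2 decimals in both. Whether the siBoth and siMYBL2 changes differ was not tested. In bulk RNA, less RNA per cell and fewer cells that carry it cannot be told apart. The replicate block raised the genes called in siBoth from 1019 to 1849 and in siMYBL2 from 1269 to 1991, and the 7 members were called with it too. Of the genes called in siBoth, 43.5% were higher with TMM scaling and 59.4% with upper-quartile scaling, and the calls of the members were the same with both.

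**Figure D2:**
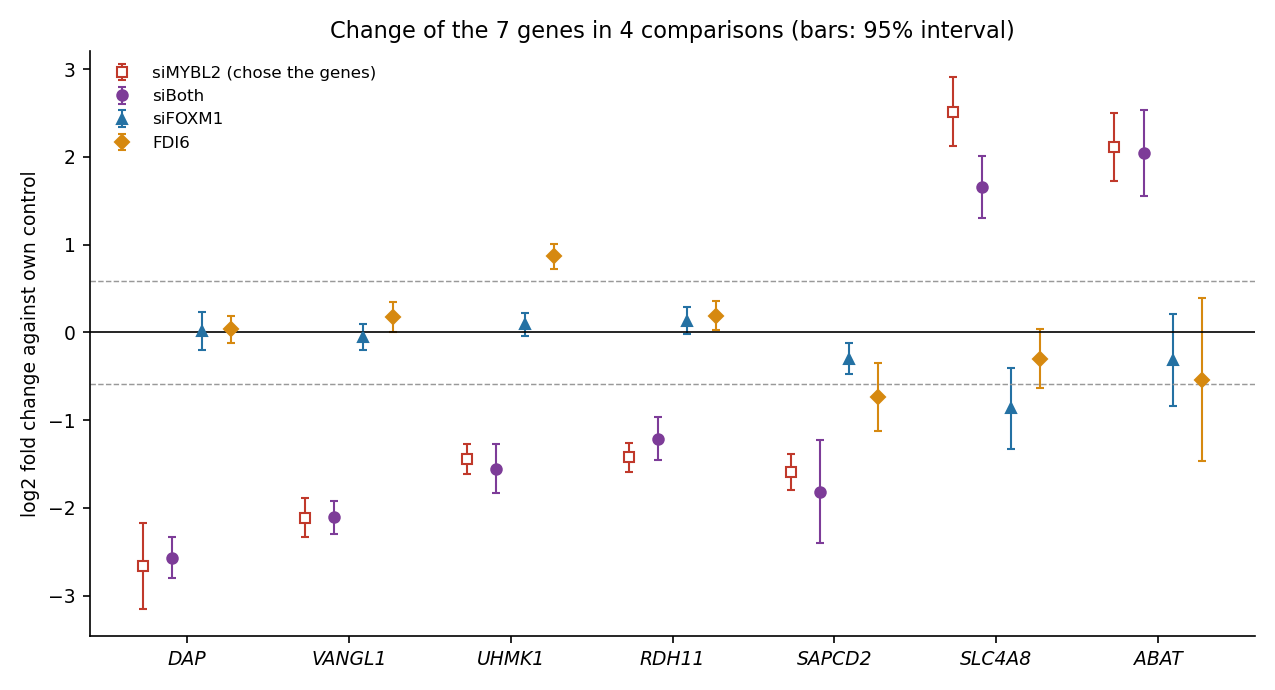
Log2 fold change against the own control (vertical axis) of each gene (horizontal axis) in 4 comparisons, with bars for the 95% interval and dashed lines at a fold change of 1.5. Each siBoth point lies on the same side of 0 as the siMYBL2 point that chose the gene, while the siFOXM1 points of DAP, VANGL1, UHMK1 and RDH11 lie near 0 and UHMK1 is above 0 with FDI6.

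The siFOXM1 libraries asked what the other siRNA does to the same genes. None of the 7 was called by the main edgeR fit, which had no replicate block. DESeq2, edgeR with the block and edgeR on all 24 libraries called 1 of them, SLC4A8. Unadjusted p was under 0.05 for SAPCD2 and SLC4A8. Of the 15892 genes tested, 0.591% were called lower and 0.0755% higher, and the controls are the siControl libraries that also chose the members. The log2 differences of DAP, VANGL1, UHMK1 and RDH11 were 0.02, -0.06, 0.09 and 0.13. Their 95% intervals ran from -0.20 to 0.23 for DAP, -0.21 to 0.09 for VANGL1, -0.04 to 0.22 for UHMK1 and -0.02 to 0.29 for RDH11. Changes of the size seen in siBoth lie far outside these intervals. SAPCD2 was at -0.30 (interval -0.48 to -0.13, adjusted p = 0.113 by edgeR) and ABAT at -0.32 (interval -0.85 to 0.21, adjusted p = 0.66 by edgeR). With the replicate block the adjusted p by edgeR was 7.52e-06 for SAPCD2, 0.00367 for RDH11 and 0.0349 for UHMK1, at differences of -0.30, 0.13 and 0.09 that stayed under a fold change of 1.5.

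SLC4A8 was the member with the largest difference in siFOXM1, and it pointed the other way from siMYBL2. Its log2 difference was -0.86 (interval -1.33 to -0.40, adjusted p = 0.0891 by edgeR), and it was lower in 4 of 4 same-numbered pairs. So were SAPCD2 and ABAT, while DAP, UHMK1 and RDH11 were higher in 4 of 4, so this count is not particular to SLC4A8. When same-numbered libraries were paired by a replicate block, the adjusted p of SLC4A8 was 4.3e-06 by edgeR and it was called. It was also called by DESeq2 (adjusted p = 0.00438) and in an edgeR fit of all 24 libraries (adjusted p = 0.00338). The block raised the genes called in siFOXM1 from 106 to 401. Replicate 3 of siControl was the highest control for SLC4A8, and without it the log2 difference was -0.68 (adjusted p = 0.19 by edgeR).

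FDI-6 gave a different picture from the double knockdown. By edgeR, 2 of the 7 genes were called in FDI6, UHMK1 higher and SAPCD2 lower, where 5.77% of the 15240 tested genes were called lower and 8% higher. UHMK1 rose by 0.87 on the log2 scale (SE 0.0646, adjusted p = 2.54e-06 by edgeR), against a fall of 1.55 in siBoth. SAPCD2 fell by 0.74 (SE 0.177, adjusted p = 0.00659 by edgeR). Without FDI6 replicate 1, the lowest library, SAPCD2 had a log2 difference of -0.50 and was not called, since its fold change was then under 1.5. RDH11 and VANGL1 were slightly higher at 0.19 (interval 0.03 to 0.36, adjusted p = 0.0657 by edgeR) and 0.17 (interval 0.00 to 0.34, adjusted p = 0.103). DAP was at 0.03 (interval -0.13 to 0.19, adjusted p = 0.755 by edgeR). SLC4A8 was at -0.30 (interval -0.64 to 0.04, adjusted p = 0.145 by edgeR), and the interval of ABAT was wide, from -1.47 to 0.39 around -0.54. The 5 epithelial markers summed to 4284 to 5067 CPM in FDI6 and 7456 to 8004 CPM in control_FDI6. The 7 markers of other cells summed to 4.97 to 9.13 CPM and 17.3 to 18.6 CPM, with CD3E at 0 in all libraries. Most of these sums was COL1A1, which was at 4.91 to 60.3 CPM over the 24 libraries. PECAM1 did not exceed 2.91 CPM and VWF 0.738 CPM in any library. The part of these shifts in the FDI6 results was not tested.

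The difference between the double knockdown and the compound was tested directly in an edgeR fit of their 12 libraries, with the log2 change in siBoth minus that in FDI6. All 7 members were called, 5 lower and 2 higher, where 12.5% of the 16725 tested genes were called lower and 9.88% higher. The difference was -2.59 for DAP (SE 0.120, adjusted p = 2.54e-08 by edgeR), -2.41 for UHMK1 (SE 0.142, adjusted p = 7.71e-08) and -2.28 for VANGL1 (SE 0.110, adjusted p = 2.54e-08). ABAT had a difference of 2.59 (SE 0.472, adjusted p = 0.00101 by edgeR), SLC4A8 of 1.97 (SE 0.216, adjusted p = 1.97e-05) and RDH11 of -1.40 (SE 0.138, adjusted p = 9.75e-06). SAPCD2, which was lower in both experiments, had the smallest difference, -1.07 (SE 0.337, adjusted p = 0.0257 by edgeR). Its call was lost in 7 of the fits that left out 1 library, those without siBoth replicate 1 or 3, siControl_both replicate 2, FDI6 replicate 2 or 3, or control_FDI6 replicate 1 or 3, with edgeR adjusted p from 0.0521 to 0.0676. Of the called genes, 44.1% were higher with TMM scaling and 59.6% with upper-quartile scaling, which moved the values of the members by 0.11 and left their calls in place.

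**Figure D3:**
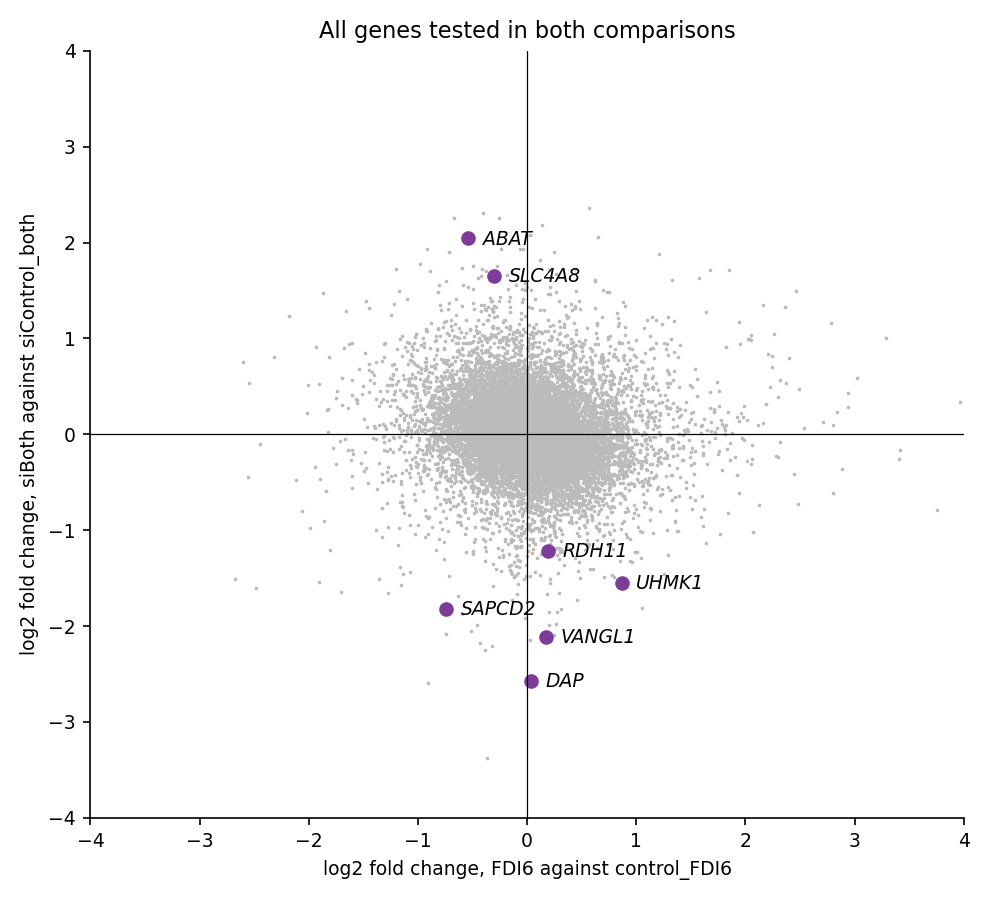
Log2 fold change in FDI6 (horizontal axis) and in siBoth (vertical axis) of the 14749 genes tested in both comparisons (grey, 8 lie outside the axes), with the 7 genes in purple. DAP, VANGL1 and RDH11 lie low and near 0 on the FDI6 axis, UHMK1 low and to the right, SAPCD2 low and to the left, and SLC4A8 and ABAT high and left of 0.

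Over the 7 lists of related genes, without the members and counting each gene once, 5 of 95 tested genes were called lower in siBoth and 5 higher, or 5.26% each way, against 3.64% lower and 2.8% higher over all tested genes. By edgeR the corresponding numbers were 2 lower and 0 higher of 92 in siFOXM1 and 3 lower and 8 higher of 89 in FDI6, where 8.99% higher stood against 8% of all genes. In siMYBL2 they were 7 lower and 7 higher of 93, or 7.53% each way, against 3.52% and 4.38% of all genes. The median log2 fold change of the listed genes was -0.04 in siBoth, -0.02 in siFOXM1 and -0.17 in FDI6, against medians of 0.02, 0.00 and -0.01 over all tested genes.

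Of the genes related to DAP, which cover death-associated proteins and the control of autophagy by mTOR and ULK1, 1 of 12 was called higher in siBoth and none lower by edgeR. That gene was DAPK2, a death-associated kinase, which rose by 1.02 (SE 0.176, adjusted p = 0.0101 by edgeR) to 8.63 ± 0.406 CPM (SD, n = 3). In FDI6 the call was RB1CC1, a subunit of the ULK1 complex, higher by 0.59 (adjusted p = 0.000201 by edgeR). None of the 18 planar cell polarity genes tested beside VANGL1 was called in siBoth, where VANGL2, the close relative of VANGL1, was at 0.91 (adjusted p = 0.0805 by edgeR). In siMYBL2 5 of 17 were called, DVL2, PRICKLE1 and RYK lower and PTK7 and VANGL2 higher. With FDI6 the receptor gene FZD3 was the single call of 16, higher by 0.74 (adjusted p = 0.00216 by edgeR), while FZD6 was at 0.36 (adjusted p = 0.0085), under the fold threshold.

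Among substrates and relatives of UHMK1, 1 of 9 was called lower in siBoth. This was SF1, the splicing factor that the kinase phosphorylates, which fell by 0.64 (SE 0.0808, adjusted p = 0.00287 by edgeR) from 365 ± 25.1 to 252 ± 10.6 CPM (SD, n = 3 each). No gene of this list was called with FDI6 by edgeR. Of the 19 retinoid genes tested beside RDH11, 1 was called lower in siBoth. ALDH1A1, which oxidizes retinaldehyde to retinoic acid, fell by 1.59 (SE 0.113, adjusted p = 0.000294 by edgeR) from 5769 ± 380.1 to 2068 ± 223 CPM (SD, n = 3 each). With FDI6, 2 of 17 retinoid genes were called higher and 2 lower, and the list median was -0.21 against -0.01 over all tested genes. The retinaldehyde dehydrogenase ALDH1A3 rose by 1.18 and the retinol dehydrogenase RDH10 by 0.70 (adjusted p = 4.45e-05 and 6.5e-05 by edgeR). RARB was called lower, at -0.66 (adjusted p = 0.00692 by edgeR).

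Spindle orientation and polarity genes beside SAPCD2 had 1 of 16 called lower and 2 higher in siBoth. GPSM2, which links the spindle to the cell cortex and is also called LGN, fell by 1.08 (SE 0.125, adjusted p = 0.00192 by edgeR), and the polarity kinase PRKCZ rose by 0.61 (adjusted p = 0.0388). GPSM2 was also called lower in siFOXM1, at -1.08 (adjusted p = 0.000572 by edgeR). With FDI6, the dynein heavy chain DYNC1H1 and the G protein subunit GNAI1 rose by 0.68 and 0.70 (adjusted p = 5.54e-06 and 2.32e-05 by edgeR), and none of the 16 was called lower. GNAI2, another G protein subunit, had a log2 difference of -0.50 (adjusted p = 0.000452 by edgeR), under the fold threshold.

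The bicarbonate transport genes beside SLC4A8 had 2 of 11 called lower and 1 higher in siBoth. The carbonic anhydrase CA12 fell by 1.67 (SE 0.314, adjusted p = 0.0143 by edgeR) and the transporter SLC4A11 rose by 0.70 (adjusted p = 0.0149). SLC4A7, a sodium bicarbonate cotransporter of the same family, was called lower in siBoth, at -0.80 (adjusted p = 0.0161 by edgeR), and in siFOXM1, at -0.73 (adjusted p = 0.0192), and higher in FDI6, at 1.22 (SE 0.081, adjusted p = 1.05e-06 by edgeR). The carbonic anhydrase CA9 was the list gene called lower with FDI6, at -1.70 (adjusted p = 0.0327 by edgeR), from a level of only 1.14 ± 0.459 CPM (SD, n = 3). None of the 10 GABA genes tested beside ABAT was called in siBoth by edgeR, and the taurine transporter SLC6A6 rose with FDI6 by 0.74 (adjusted p = 6.57e-06).

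**Figure D4:**
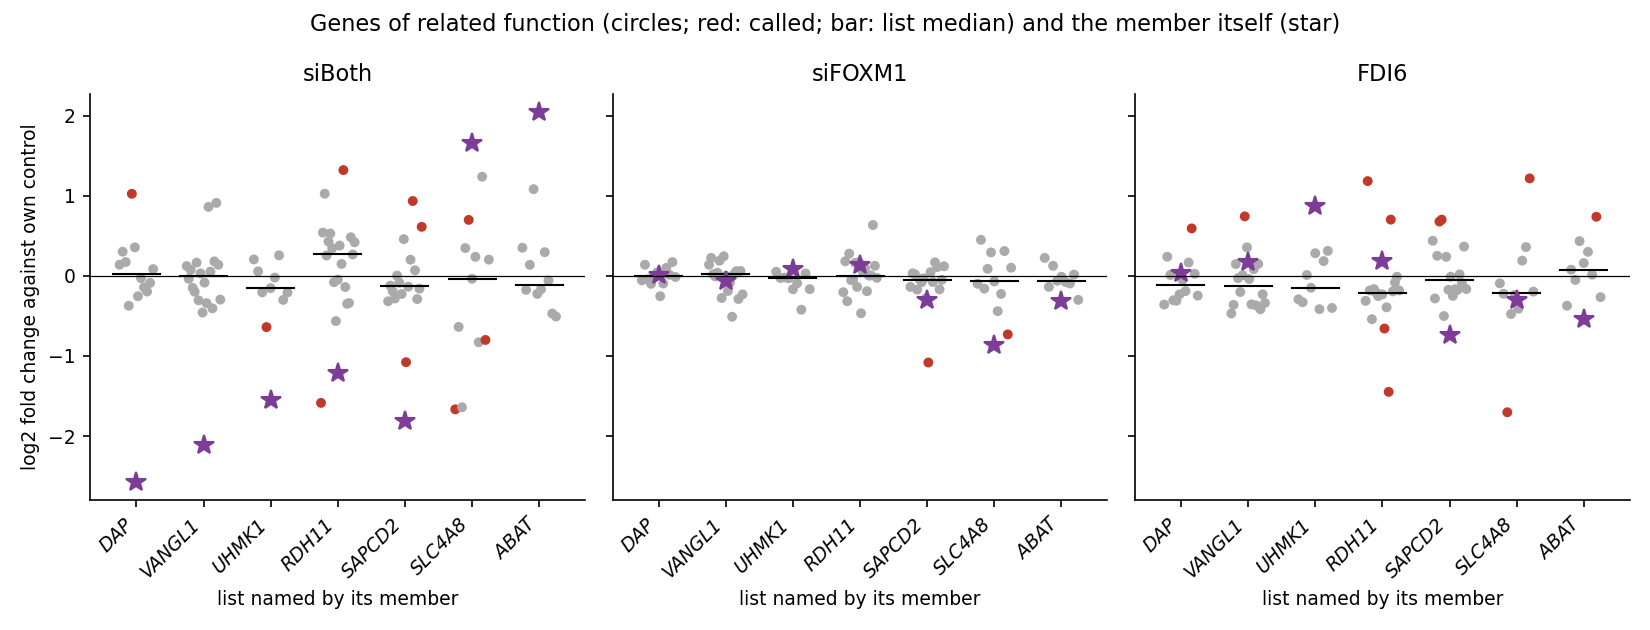
Log2 fold change against the own control (vertical axis) of the genes listed with each member (circles, red where called, bar at the list median) and of the member itself (star) in siBoth, siFOXM1 and FDI6. In siBoth the stars lie outside the spread of their lists for 6 of the genes on the side of their own change, except that ALDH1A1 lies below RDH11.

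The genes whose profile was most like that of each member were found over the 24 libraries, among the 11368 genes that averaged 100 counts or more. The measure was the root mean square difference in log2(CPM + 0.5) after the mean of the own control group was taken off. DAP was nearest to VANGL1 (0.36) and to EXTL3 (0.40), a glycosyltransferase of heparan sulfate synthesis. VANGL1 was nearest to EXTL3 (0.14) and to the zinc finger gene ZNF845 (0.25). UHMK1 was nearest to the amino acid transporter SLC7A1 (0.22) and to SLAIN2, a microtubule end protein (0.24). Like UHMK1, both had negative log2 fold changes in siBoth, -1.41 and -1.29, and positive ones in FDI6, 0.58 and 0.43.

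RDH11 was nearest to the translation inhibitor EIF4EBP2 (0.12) and to YWHAG, a 14-3-3 protein (0.15). SAPCD2 was nearest to the DNA helicase PIF1 (0.26) and to ALDH1A1 (0.33), and PIF1 had a log2 fold change of -2.08 in siBoth and -0.74 in FDI6. SLC4A8 was nearest to TMEM59L (0.39) and to the inflammasome sensor NLRP1 (0.43), and ABAT to the microtubule protein MAP6 (0.31) and the spectrin SPTB (0.33). MAP6 and SPTB had log2 fold changes of 1.41 and 1.35 in siBoth. These distances include the libraries that chose the members and are a description.

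The words of the 3′ UTRs were set beside the calls of all genes that hold them. In siBoth, 151 of 1135 tested genes with CCTTACA were called lower, or 13.3%, against 4.14% of all tested genes with a 3′ UTR. Without the 4 members the share was 13.0%. Their median log2 fold change was -0.17, against 0.00 for all. Among the 121 genes with the word at least 2 times, as in VANGL1, 21.5% were called lower and none higher. Of the 1014 genes with 1 such word, 12.3% were called lower. The median 3′ UTR was 5610 bases in the first group and 3242 in the second, and the part of length in this gap was not tested. Genes with ACGCCCA, the word of SAPCD2, were called lower in 46 of 609 cases, or 7.55%, with a median of -0.13. Only 1 of the 41 genes with ACGCCCA at least 2 times was called lower, or 2.44% (95% interval 0.432% to 12.6%). The share was 7.92% among the 568 genes with it 1 time, which lies inside that interval. The medians of these groups were -0.21 and -0.13, in that order. The words had been found with siMYBL2, where 10.8% of the genes with CCTTACA and 9.79% of those with ACGCCCA were called lower, so those shares describe the choice of the words. The siBoth cells received siRNA against MYBL2 too, and no test was made.

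Genes with a word have longer 3′ UTRs, with a median of 3398 bases for CCTTACA against 1344 for all tested genes in siBoth. Among 3′ UTRs over 1500 bases, 12.9% of the genes with CCTTACA were called lower in siBoth and 4.77% of those without it. Among 3′ UTRs of up to 1500 bases the shares were 15.3% and 2.14%. For ACGCCCA the shares were 7.66% with and 5.89% without it over 1500 bases, and 7.08% and 2.42% up to 1500 bases. The gap for ACGCCCA in long 3′ UTRs was thus small in siBoth.

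The shares were different in the experiments without siRNA against MYBL2. In siFOXM1, 0.528% of genes with CCTTACA and 1.16% of genes with ACGCCCA were called lower, against 0.708% of all with a 3′ UTR. In FDI6 3.27% of genes with CCTTACA were called lower and 14.1% higher, with a median of 0.19 against 0.00 for all. The length of the 3′ UTR moved with this shift: over 1500 bases the medians were 0.24 with and 0.16 without the word, and up to 1500 bases they were -0.07 and -0.14. UHMK1, with a 3′ UTR of 7081 bases, was the only word-bearing member called higher in FDI6.

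**Figure D5:**
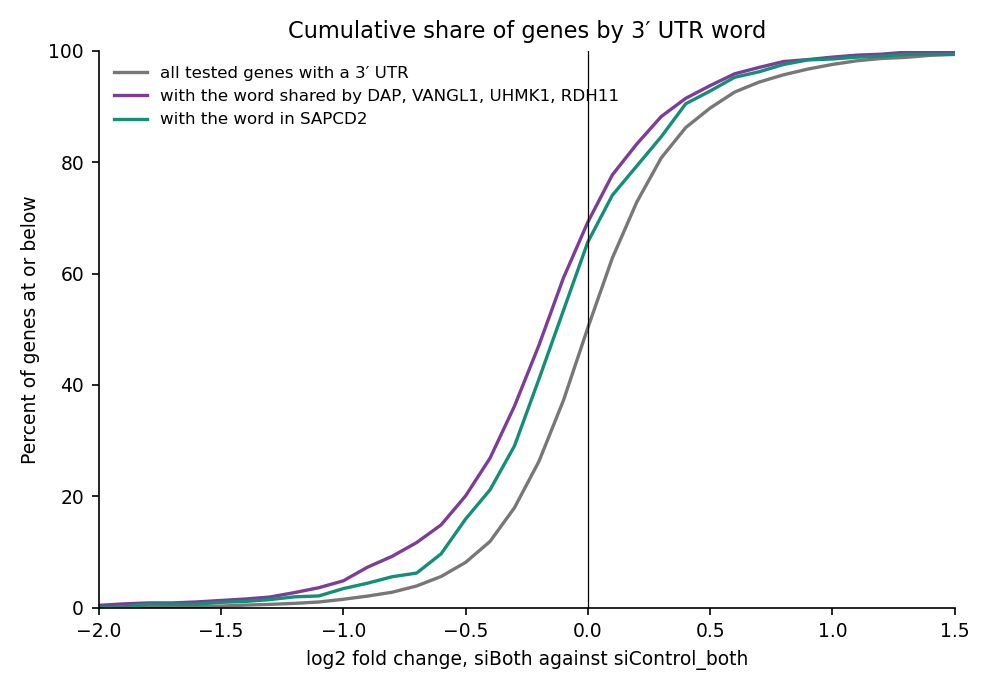
Cumulative percent of genes (vertical axis) at or below each log2 fold change in siBoth (horizontal axis) for all tested genes with a 3′ UTR and for those with either word. The curve of the word shared by DAP, VANGL1, UHMK1 and RDH11 lies to the left of the curve of all genes, with medians of -0.17 and 0.00, and that of the word in SAPCD2 lies between them with a median of -0.13.

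Promoters were searched because MYBL2 and FOXM1 reach many late cell cycle genes through the CHR element, often with a CCAAT box upstream. RefSeq windows on GRCh38.p14, from 250 bases before to 50 bases after each start, were found for 6 of the 7 members. Both strands were searched for CCAAT, for the CHR as TTTGAA or TTCGAA, for MYB sites as TAACGG or TAACTG and the same letters with C in first place (CAACGG or CAACTG), and for the forkhead site as TAAACA. Of 35116 promoters, 34.6% held CCAAT, 16.4% a CHR, 25.7% a MYB site, 12.3% a forkhead site and 6.38% both CCAAT and a CHR. SAPCD2 and RDH11 were the 2 members with both, and the 100 bases before their starts are shown on the strand of the gene with the matches in capitals.
SAPCD2, chr9:137070558-137070657, minus strand: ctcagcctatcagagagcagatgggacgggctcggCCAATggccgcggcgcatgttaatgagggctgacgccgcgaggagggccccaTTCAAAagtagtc
RDH11, chr14:67695765-67695864, minus strand: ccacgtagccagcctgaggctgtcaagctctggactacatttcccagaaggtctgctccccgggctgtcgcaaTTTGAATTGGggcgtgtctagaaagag
In SAPCD2 the CCAAT box began at -65 and the CHR, read on the other strand, at -13 from the start. In RDH11 a CHR at -27 overlapped a CCAAT box on the other strand at -22, and a MYB site stood at -201. The RefSeq start of RDH11 lies inside the gene span given above, which reaches 67695793. The CHR and CCAAT box of RDH11 lie inside that span too. SAPCD2 was lower in siBoth and in FDI6, whereas RDH11 was lower in siBoth alone of these comparisons. The windows of VANGL1 and UHMK1 held none of the 4 motifs, while SLC4A8 (2 windows) and ABAT (4 windows) had CCAAT boxes and MYB sites in some windows and no CHR in any, and 1 window of ABAT held a forkhead site. A match says that the letters stand in the window, and nothing of whether a factor binds there.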

How the data were processed

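RNA-seq of 24 A549 libraries was analysed from per-gene counts. The authors used Trim Galore for trimming, STAR for alignment to hg38 and HTSeq for counting on the GENCODE annotation. What they deposited are raw counts of read pairs per gene, without scaling. HTSeq drops pairs that could belong to more than 1 gene, so overlapping genes lose some, and pairs not assigned to any gene stayed out of library sizes. Versions of the tools are not given in the sources used here.

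The 7 members, the lists of related genes, the 3′ UTR words and the rules were chosen with earlier results of these data known. Groups came from the sample labels. Identifiers were matched to a later GENCODE release on the same build (58207 of 58721). For each comparison only the libraries of its groups entered a fit with edgeR 4.0.16 in R 4.3.3 (TMM, filterByExpr, quasi-likelihood test, Benjamini-Hochberg adjustment over all genes tested). Calls needed an adjusted p below 0.05 and a change of more than 1.5-fold. The standard error is the log2 fold change divided by the square root of F, and intervals are 95% intervals from the fitted degrees of freedom. The study's methods name DESeq2. Figures used matplotlib 3.10.9.

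Named genes were the 7 members, MYBL2 and FOXM1, the 2 nearest genes per member, and the 2 list genes per member with the lowest adjusted p among those called in siBoth and in FDI6. GPSM2 and SLC4A7 in siFOXM1, SLC4A7 in siBoth, GNAI2, FZD6 and the planar cell polarity genes of siMYBL2 were named after their values were seen. RARB in FDI6 was named in the same way. The result of 1 list gene is not reported here. Words were counted in canonical 3′ UTRs of at least 30 bases.

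In the knockdowns, libraries with the same replicate number in the labels shared their deviations from the group means (correlations of 0.539 to 0.906 over all pairs), which was not so with FDI6 (-0.288 to 0.161). No 2 libraries of a group agreed within sampling noise (chi-square per gene 3.37 to 55.8). The paper states biological replicates. The labels do not say that they are separate cultures, so p-values measure the spread between these libraries. The fits were tested on simulated data with known changes. The alternatives tried were scaling by RLE or the upper quartile, DESeq2 1.42.0, dropping the filter or asking for 10 counts in each library, a replicate block, a single fit of the 24 libraries, and leaving out each library in turn. The split by 3′ UTR length was chosen after seeing the data.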

Additional observations from a re-analysis of the deposited data

Results flagged for a closer look

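All 7 members had a change in siBoth that differed from that in FDI6 by the edgeR test of the difference itself. The log2 difference was -2.59 for DAP, -2.28 for VANGL1, -2.41 for UHMK1, -1.40 for RDH11, -1.07 for SAPCD2, 1.97 for SLC4A8 and 2.59 for ABAT. UHMK1 was called in both experiments in opposite directions, and SAPCD2 was called lower in both.

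One library stood apart from the others of its group. SLC4A8 was at 7.96 CPM in siControl replicate 3 and between 4.88 and 5.34 CPM in the other 3 siControl libraries. This was the single case in 21 sets of 4 libraries examined by Dixon's criterion at the 95% level, and chance gives about 1 in 20. Without that library SLC4A8 had a log2 difference of 2.70 in siMYBL2 and -0.68 in siFOXM1.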

How the results depend on the processing

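The calls of the 7 members in siBoth and siMYBL2 held under every alternative run. In siFOXM1 the members called went from 0 to 1, SLC4A8, with DESeq2, with the replicate block and with all 24 libraries in 1 fit. In FDI6 they went from 2 to 1 without FDI6 replicate 1 and were 2 without any other library. The difference between siBoth and FDI6 lost SAPCD2 when any 1 of 7 libraries was left out. ABAT had no value in FDI6 or in that difference where 10 counts were required in every library. The difference of DAP lay near 0 and its sign was not stable: it ran from -0.0491 to 0.071 in siFOXM1 with 1 library left out (negative without siFOXM1 replicate 1 or 2 or siControl replicate 3), and in FDI6 from -0.0034 to 0.0856 with 1 library left out (negative without FDI6 replicate 3), and was -0.0105 with upper-quartile scaling.

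Genes called in siBoth were 1019, against 1545 with no filter, 1849 with the replicate block and 587 to 1097 with 1 library left out, lowest without siBoth replicate 2 (587), siControl_both replicate 2 (589) or siControl_both replicate 3 (643). Those in siFOXM1 were 106, against 163 with DESeq2, 401 with the block and 56 to 115 with 1 library left out, lowest without siFOXM1 replicate 1 (56), siControl replicate 1 (66), siControl replicate 2 (68) or siFOXM1 replicate 3 (69). Those in siMYBL2 rose from 1269 to 1991 with the block. The causes were not tested. The block changed no other call of a member. The share of genes with CCTTACA called lower in siBoth was 10.5% over any annotated 3′ UTR, and 8.09% and 8.53% for the first and the last 6 bases of the word. ABAT had 6 to 42 counts in each siFOXM1, FDI6 and control library, which limits what can be seen of small changes.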
